A study of Homo sapiens with 6 samples.

Results

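A set of 10 genes that cells use when amino acids run short were described in spheroids of 2 human colorectal cancer lines: ASNS, ATF4, DDIT3, TRIB3, CHAC1, SESN2, PSAT1, PHGDH, PSPH and CEBPB. They were chosen by gene symbol, and where a gene had several features on the array the one with the highest mean was to stand for it. The symbols of 8 of the 10 members were found, each on 1 feature, among 14884 genes with a symbol, whereas CHAC1 and CEBPB were not analysed here. The samples were spheroids of SW620, a line grown from a lymph node metastasis, and of SW480, a line grown from a primary tumour. Both were kept in serum-free medium with growth factors, and no adherent or amino acid starved culture was among the samples analysed here. Each group is 1 established line, and its 3 arrays are technical replicates per the series' design text, so p-values measure only the spread between such arrays. The stated aim of the series was to compare the tumour-initiating compartment of the lines.

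When an amino acid is scarce, uncharged tRNAs activate the kinase GCN2, which phosphorylates the translation factor eIF2. General translation then falls while ATF4, a transcription factor whose mRNA carries upstream open reading frames, is translated more. ATF4 switches on enzymes that make amino acids, such as asparagine synthetase, tRNA synthetases and feedback regulators such as TRIB3 and DDIT3. ATF4 is therefore controlled to a large part through its translation, and these arrays measured only RNA.

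Values are on a log2 scale, so that a difference of 1 is 2-fold, and each difference is SW620 minus SW480. The array medians lay between 4.04 and 4.07, and arrays correlated across features with r of 0.988 to 0.992 within a line and 0.963 to 0.965 between lines. Of 9 measured markers of colorectal epithelium, 6 were above the 75th percentile feature (5.57) in each line, though not the same 6. Of the 9, 4 were higher and 1 lower in SW620, among them CEACAM5 (6.35 in SW620 and 3.93 in SW480) and CDX2 (4.68 in SW620 and 6.22 in SW480). Of 6 endothelial markers 5 were below the median feature (4.07) in each line. Of 4 leukocyte markers LCP1 (9.21 in SW620 and 4.56 in SW480) and CD68 (6.35 in SW620 and 5.92 in SW480) were higher in SW620. The other leukocyte markers, CD14 and CSF1R, did not pass. Of 3 fibroblast markers LUM (7.95 in SW620 and 4.73 in SW480) was higher, and DCN and THY1 did not pass. The part of these markers in the results was not tested. Each sample was a culture of 1 established line, so no marker here counts leukocytes, fibroblasts or endothelial cells. In bulk RNA, fewer cells of a kind within a line and less RNA per cell cannot be told apart.

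Of the 8 measured members, PHGDH, ASNS and SESN2 were lower in SW620 and TRIB3 was higher, while ATF4, DDIT3, PSAT1 and PSPH did not pass the test. The test was limma's moderated test with a Benjamini-Hochberg adjusted p below 0.05 over all genes. By this rule 19.5% of all genes were lower and 16.0% higher in SW620, 35.6% in all, against 3 lower and 1 higher of 8 members. At a minimum of 2-fold, 3.76% of all genes were lower and 2.32% higher, 6.07% in all, against 2 lower and 0 higher of 8 members. The median difference of the members was -0.12, beside 0.013 over all genes. The arrays of the lines did not overlap for 7 of the members, DDIT3 being the exception, and for 45.7% of all genes.

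**Figure D1:**
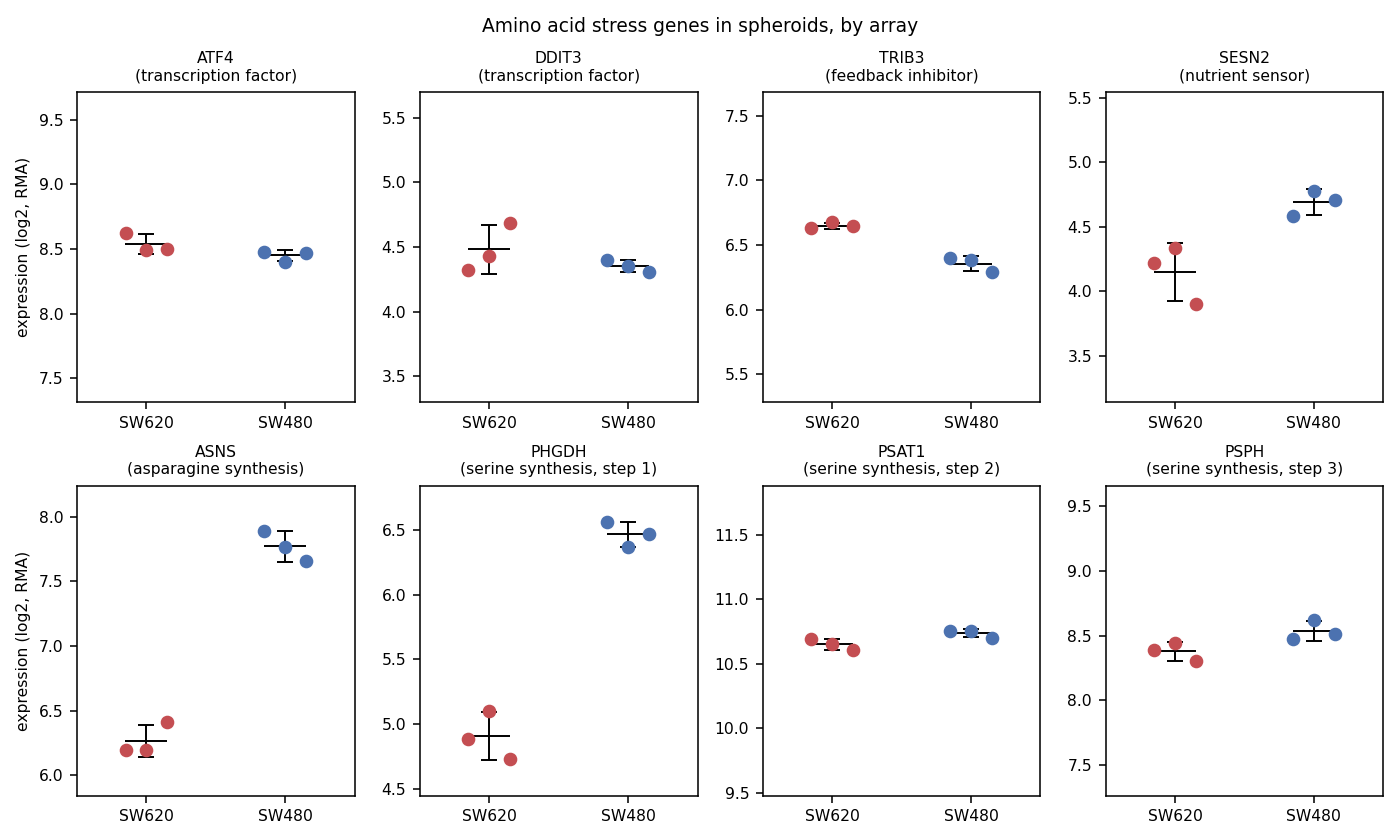
Expression of the 8 measured members on each array (y axis, log2 RMA value; every panel spans the same range of log2 units), for SW620 and SW480 spheroids. Points are arrays, and the horizontal line and bars are the mean and SD of 3 arrays; ASNS and PHGDH lie more than 1 log2 unit lower in SW620, while the arrays of ATF4 and PSAT1 lie close together.

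ASNS, which makes asparagine from aspartate and glutamine, was 6.20, 6.19 and 6.41 on the SW620 arrays and 7.89, 7.77 and 7.65 on the SW480 arrays. Every SW620 array was thus below every SW480 array, by more than a log2 unit. The mean was 6.27 ± 0.12 in SW620 and 7.77 ± 0.12 in SW480 (SD, n = 3 each), a 2.84-fold lower level in SW620. The difference was -1.51 (95% interval -1.71 to -1.30, adjusted p = 5.4e-08), and 2.61% of all genes had a larger one in either direction. ASNS lies on chromosome 7 (gene ID 440).

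The bases before the start of ASNS are shown because they hold the textbook site through which ATF4 acts on this gene. They are set beside those of PHGDH and SESN2, which were also lower in SW620, and of PSAT1, which did not pass the test. The sequences are RefSeq's (GRCh38.p14), 5′ to 3′ on the gene's strand, 250 bases that end just before the annotated start, with ASNS at chr7:97872409-97872658 (minus strand), PHGDH at chr1:119711684-119711933, SESN2 at chr1:28259268-28259517 and PSAT1 at chr9:78296875-78297124 (plus strand). Capitals mark TGATGNAA, the core of the response element bound by ATF4 with C/EBP partners, and CCAAT, the box bound by NF-Y, each on either strand.
ASNS: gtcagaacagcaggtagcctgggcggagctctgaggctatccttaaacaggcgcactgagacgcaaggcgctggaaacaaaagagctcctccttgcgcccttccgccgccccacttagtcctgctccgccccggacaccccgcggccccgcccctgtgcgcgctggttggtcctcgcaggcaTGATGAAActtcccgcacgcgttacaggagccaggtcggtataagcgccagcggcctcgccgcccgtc
PHGDH: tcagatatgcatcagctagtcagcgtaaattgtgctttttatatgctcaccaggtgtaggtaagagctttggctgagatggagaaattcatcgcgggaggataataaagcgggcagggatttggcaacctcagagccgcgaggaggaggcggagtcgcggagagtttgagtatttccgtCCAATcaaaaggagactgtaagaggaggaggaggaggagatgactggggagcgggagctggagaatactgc
SESN2: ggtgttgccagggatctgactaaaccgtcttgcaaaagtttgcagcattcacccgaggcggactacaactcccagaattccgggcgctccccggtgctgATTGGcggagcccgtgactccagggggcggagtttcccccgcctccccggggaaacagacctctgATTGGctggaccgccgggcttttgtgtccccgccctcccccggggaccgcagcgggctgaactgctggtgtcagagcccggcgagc
PSAT1: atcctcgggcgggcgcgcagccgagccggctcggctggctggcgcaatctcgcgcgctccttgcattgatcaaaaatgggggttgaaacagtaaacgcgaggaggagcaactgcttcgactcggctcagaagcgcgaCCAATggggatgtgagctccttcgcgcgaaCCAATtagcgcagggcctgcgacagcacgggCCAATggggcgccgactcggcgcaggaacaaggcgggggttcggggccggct
In ASNS the capitals are TGATGAAA, from 68 to 61 bases before the start, and the window of its other listed start held neither motif. PHGDH held 1 CCAAT, from 71 to 67 bases before its start, PSAT1 held 3, and SESN2 held 2 on the opposite strand, as ATTGG. The motifs did not overlap each other in these windows. TGATGNAA was found in 3.14% of all 35116 listed windows and in 2.15% of the windows of genes tested. It was in 2 of the 9 members with a listed start, ASNS and CHAC1, the latter not analysed here. CCAAT was in 32% of all windows and in 6 of the 9 members. Members were counted by gene and several have more than 1 window, so these counts and the window shares are unlike measures. Neither motif was in any window of ATF4 or TRIB3. A match describes letters only, and no binding was measured.

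Measured genes beside ASNS on chromosome 7 were also lower. Of the 5 nearest measured protein-coding genes on each side, 7 of 10 were lower in SW620 and 0 were higher, with a median difference of -0.60 and a range from -1.43 to 0.098. Around PHGDH on chromosome 1, 1 of 10 neighbours was lower and 3 were higher (median 0.16, range -2.64 to 1.39). The lower one was NOTCH2 (-2.64), a larger difference than that of PHGDH itself. Around SESN2, 2 of 10 were lower and 2 higher (median 0.049), and around TRIB3, 1 of 8 was lower and 1 higher (median -0.042). Among all protein-coding genes 21.9% were lower. Neighbours were examined after the values were seen, and their part in the level of ASNS was not tested.

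PHGDH catalyses the entry step of serine synthesis, from the glycolytic intermediate 3-phosphoglycerate, and had the largest difference of the members. It was 4.88, 5.10 and 4.73 on the SW620 arrays and 6.56, 6.37 and 6.47 on the SW480 arrays. The groups were separated by more than 1 log2 unit. The means were 4.90 ± 0.19 in SW620 and 6.47 ± 0.095 in SW480 (SD, n = 3 each), 2.96-fold lower in SW620 (-1.56, 95% interval -1.79 to -1.34, adjusted p = 8.17e-08).

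The following enzymes of the pathway differed far less. PSAT1, the aminotransferase of the middle step, was 10.69, 10.65 and 10.60 in SW620 and 10.75, 10.75 and 10.70 in SW480. Its SW620 arrays were all just below its SW480 arrays, and the difference of -0.087 had an interval from -0.26 to 0.086 (adjusted p = 0.452). PSPH, the phosphatase that releases serine, was 8.39, 8.44 and 8.30 in SW620 and 8.47, 8.62 and 8.52 in SW480. These arrays did not overlap either, with a difference of -0.16 (interval -0.34 to 0.027, adjusted p = 0.181). PSPH has a near-identical pseudogene copy, and whether its feature also reads that copy was not tested. The intervals of PSAT1 and PSPH leave out a change as large as that of PHGDH.

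Ratios within an array set these steps against each other, as a description with no test, since the pairs were chosen for their unequal differences. The log2 value of PHGDH minus that of PSAT1 was -5.74 ± 0.17 in SW620 and -4.27 ± 0.10 in SW480 (SD, n = 3 each), a difference of -1.48 between the lines, and PHGDH minus PSPH differed by -1.41. ASNS minus ATF4 differed by -1.59, and TRIB3 minus ASNS by 1.80.

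ATF4, the transcription factor at the centre of the response, was 8.62, 8.49 and 8.50 in SW620 and 8.48, 8.40 and 8.47 in SW480. The lowest SW620 array was only just above the highest SW480 array. The difference of 0.086 (interval -0.093 to 0.27, adjusted p = 0.476) is smaller than that of 70.9% of genes. DDIT3 encodes CHOP, a factor that ATF4 induces and that is tied to cell death under lasting stress. It was 4.32, 4.43 and 4.69 in SW620 and 4.40, 4.35 and 4.31 in SW480, so that the groups overlapped. Its difference was 0.13 (interval -0.090 to 0.35, adjusted p = 0.372), and its level was near the median feature, where a change can be understated.

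TRIB3, a pseudokinase that ATF4 induces and that restrains ATF4 in turn, was 6.63, 6.67 and 6.64 in SW620 and 6.40, 6.38 and 6.29 in SW480. It was the only member that rose, by 0.29 or 1.23-fold (interval 0.12 to 0.47, adjusted p = 0.0118). That call rests on SW480 replicate 3, since without it the difference was 0.26 with an adjusted p of 0.0519. SESN2, a sestrin that restrains mTORC1 when leucine is low, was 4.22, 4.33 and 3.90 in SW620 and 4.59, 4.78 and 4.71 in SW480. It was lower in SW620 in every array, 1.45-fold in the mean (-0.54, interval -0.78 to -0.30, adjusted p = 0.00189). Its SW620 mean of 4.15 lay close to the median feature of 4.07, so the fold is uncertain.

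**Figure D2:**
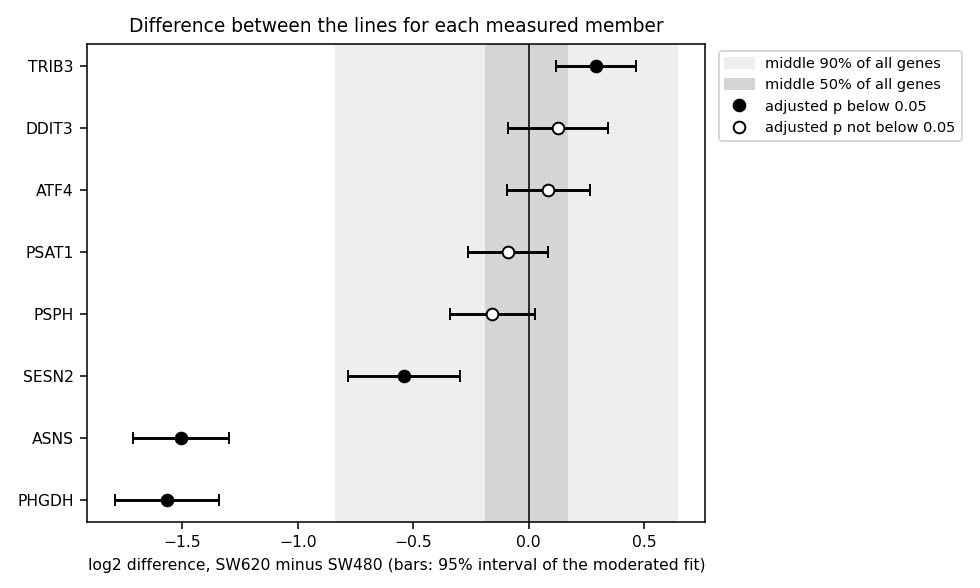
Difference between the lines for each measured member (x axis, log2, SW620 minus SW480), with the 95% interval of limma's fit. Shading spans the middle 50% and 90% of all 14884 genes; PHGDH (-1.56) and ASNS (-1.51) lie outside the wider band, and TRIB3 (0.29) and SESN2 (-0.54) lie within it.

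In a list of other genes that ATF4 is known to induce, most measured genes were lower in SW620. The list was chosen with earlier results of these data known. It leaves out the tRNA synthetases described below, several of which ATF4 induces and of which 5 were higher and 6 lower. Of 40 listed, 19 were measured. Of these 11 were lower, 1 was higher and 7 did not pass, beside 19.5% lower and 16.0% higher of all genes. The list's median difference was -0.34, beside 0.013 for all genes. CTH, which makes cysteine from cystathionine, was 4.56, 4.69 and 4.47 in SW620 and 5.62, 5.61 and 5.66 in SW480, with no overlap, and was 2.09-fold lower (-1.06, adjusted p = 5.83e-07). KLHL24, a ubiquitin ligase adaptor, was 2.01-fold lower (-1.01). ATF3, a stress-induced partner and target of ATF4, was 1.92-fold lower (-0.94), with SW620 arrays of 3.57, 3.77 and 3.63 and SW480 arrays of 4.74, 4.64 and 4.42. VLDLR, a lipoprotein receptor, was 1.88-fold lower (-0.91). The SW620 means of ATF3 (3.66) and VLDLR (3.86) were below the median feature, so their folds may be understated.

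The gene of this list that rose was GDF15, a secreted stress signal, named here after its values were seen. It was 6.78, 6.84 and 6.64 in SW620 and 6.27, 6.43 and 6.25 in SW480, a 1.35-fold rise (adjusted p = 0.00204) with no overlap. The mitochondrial serine hydroxymethyltransferase SHMT2 (0.14), the hormone FGF21 (-0.067) and EIF4EBP1, a repressor of translation (0.053), did not pass. FGF21 was below the median feature in both lines (3.80 in SW620 and 3.87 in SW480), where a change can be understated. TGATGNAA was found before 3 of the 16 genes of this list with a listed start, ATF3, FGF21 and JDP2, whose differences were -0.94, -0.067 and -0.39. It was in 2.15% of the windows of genes tested, a share counted by window and not by gene.

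**Figure D3:**
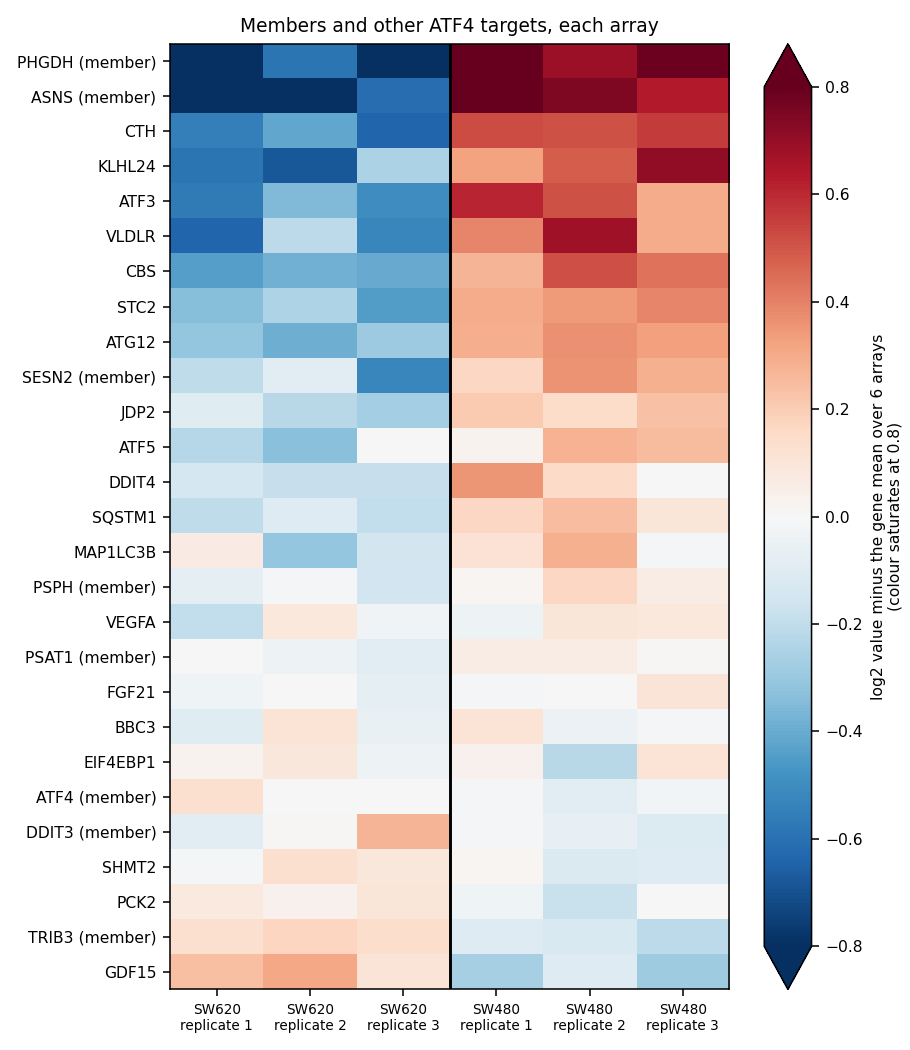
Log2 value of each array minus the gene's mean over the 6 arrays (colour, saturating at 0.8), for the 8 members and 19 other ATF4 target genes, ordered by difference. SW620 arrays are left of the line and SW480 arrays right of it; PHGDH, ASNS and CTH are at the top, lowest in SW620, and TRIB3 and GDF15 at the bottom, highest in SW620.

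All 4 kinases that phosphorylate eIF2 alpha were measured and were lower in SW620. EIF2AK4, which encodes GCN2, the sensor of uncharged tRNA, was 6.61, 6.63 and 6.69 in SW620 and 7.07, 7.03 and 7.05 in SW480, a 1.33-fold lower level (-0.41, adjusted p = 0.00118) with arrays well apart. EIF2AK3, which encodes PERK, the kinase that senses stress in the endoplasmic reticulum, was 5.93, 5.74 and 5.84 in SW620 and 6.43, 6.34 and 6.65 in SW480 (-0.64, adjusted p = 0.000197). EIF2AK1, the heme-regulated kinase HRI, was 1.46-fold lower (-0.55). EIF2AK2, the double-stranded RNA sensor PKR, was 1.38-fold lower (-0.47). The 4 genes lie on chromosomes 15, 2, 7 and 2, and each stayed lower and past the threshold in all 16 alternatives tried. Of the 25 listed genes of this step 9 were measured, with a median of -0.34. Of these 5 were lower and 1 higher, beside 19.5% lower and 16.0% higher of all genes. The higher one was the mitochondrial protease OMA1 (0.29), a call lost without SW480 replicate 2. The GCN2 activator GCN1 (0.17), its inhibitor IMPACT (-0.063) and DELE1 (-0.0028), which relays mitochondrial stress, did not pass.

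Cytosolic tRNA synthetases, several of which ATF4 induces, went both ways. Of 24 listed genes 19 were measured, with a median of -0.037. Of these 5 were higher, 6 lower and 8 did not pass, beside 16.0% higher and 19.5% lower of all genes. The lower count was 3 without SW480 replicate 3. AARS1, which charges alanine, was 10.53, 10.46 and 10.46 in SW620 and 8.89, 9.00 and 8.97 in SW480, a 2.89-fold rise (1.53, adjusted p = 8.84e-09). KARS1, the lysine enzyme, rose 2.24-fold and TARS1, a threonine enzyme, 1.78-fold. The related TARS3 was 1.82-fold lower (-0.86), and GARS1, the glycine enzyme, a gene picked with its values in view, was lower by a factor of 1.62 (-0.70). NARS1, which loads the asparagine that ASNS makes, differed by 0.12 (adjusted p = 0.397), and SARS1, the serine enzyme, by -0.012 (adjusted p = 0.939). TGATGNAA was found before AARS1, GARS1 and IARS1, of 15 synthetase genes with a listed start. It was in 2.15% of the windows of genes tested, a share counted by window and not by gene. The eIF2 group held it before 0 of 8 genes and the serine, glycine and one-carbon list before 1 of 15. The asparagine to arginine list held it before 0 of 10, the unfolded protein response list before 0 of 15 and the mTORC1 list before 1 of 22.

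AARS1 and KARS1 lie on the same stretch of chromosome 16, together with WDR59 and GCSH described below. Of the other 51 measured protein-coding genes between AARS1 and GCSH, 35 (68.6%) were higher in SW620 and 3 lower, with a median difference of 0.84. On the whole chromosome 33.7% of 522 were higher, and 17.6% of all protein-coding genes. The stretch was set by these genes after their values were seen, and its part in their rise was not tested.

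Of 26 listed enzymes and carriers of serine, glycine and one-carbon metabolism 16 were measured, with a median of -0.17. Of these 3 were higher, 5 lower and 8 did not pass, beside 16.0% higher and 19.5% lower of all genes. CBS and CTH, the enzymes that pass the sulfur of homocysteine to cysteine with the help of serine, were both lower, CBS 1.76-fold (-0.82). Both were also counted among the lower ATF4 targets above, so the groups are not separate. The glycine cleavage genes AMT and GCSH rose, AMT to 5.12 in SW620 against 4.03 in SW480 and GCSH to 7.39 in SW620 against 6.14 in SW480. The SW480 mean of AMT was below the median feature. GLDC, the decarboxylase of the same complex, was dim in both lines (3.73 in SW620 and 3.67 in SW480) and did not pass, nor did DLD, its dehydrogenase (-0.17). Among enzymes that handle folate-bound carbon, MTHFD1L was higher (0.73) and TYMS (-0.41) was lower, both named here with their values in view. SHMT1, picked in the same way, was also lower (-0.23), with an adjusted p of 0.0423, close to the threshold.

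Around asparagine and glutamine, 15 of 30 listed enzymes were measured, with a median of 0.12. Of these 4 were higher, 3 lower and 8 did not pass, beside 16.0% higher and 19.5% lower of all genes. The higher count was 2 without SW620 replicate 2 or SW480 replicate 3. ASS1, which joins citrulline to the same substrate as ASNS, aspartate, was 6.56, 6.70 and 6.48 in SW620 and 8.58, 8.57 and 8.50 in SW480. This 3.92-fold lower level (-1.97, adjusted p = 1.64e-09) was larger than the difference of any member. GLUL, which makes glutamine, was 1.45-fold lower (-0.53), while GLUD1, which releases ammonia from glutamate, rose 2.07-fold (1.05) and CTPS1, a glutamine-using enzyme of CTP synthesis, 1.41-fold (0.49). Of the measured genes of asparagine breakdown, ASRGL1 was 1.38-fold lower (-0.46, adjusted p = 0.00105) on the brightest of its 3 features. The other features of ASRGL1 are not described here. ASPG differed by 0.014 (adjusted p = 0.936), and both genes were picked with their values in view.

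The unfolded protein response, which shares PERK and ATF4 with the amino acid response, was represented by 15 of 26 listed genes. Of these 5 were lower, 2 higher and 8 did not pass, beside 19.5% lower and 16.0% higher of all genes. The group's median was -0.16, and its lower count was 3 without SW480 replicate 2 or 3. ERO1B, an oxidase of disulfide formation, was 5.78-fold lower (3.51 in SW620 and 6.04 in SW480), with its SW620 mean near the 25th percentile feature of 3.53. The related ERO1A was brighter, 8.60 in SW620 and 8.56 in SW480, and did not pass (0.039, adjusted p = 0.838). The remaining called genes differed by at most 0.38 in size, among them SEC61B, a subunit of the translocon (-0.30), the sensor ATF6B (0.38) and SDF2L1, which works with chaperones (0.38). The call of SDF2L1 was lost without SW620 replicate 3 (0.33, adjusted p = 0.0523) or SW480 replicate 2 (0.29, adjusted p = 0.0724). XBP1 differed by -0.17 and ERN1, which encodes its activator IRE1, by -0.27 (adjusted p of 0.144 and 0.0359).

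Upstream of mTORC1, where SESN2 acts, 25 of 35 listed genes were measured, with a median of -0.086. Of these 6 were higher, 4 lower and 15 did not pass, beside 16.0% higher and 19.5% lower of all genes. RRAGD, a Rag GTPase that recruits mTORC1 to lysosomes, was 3.56, 3.85 and 3.47 in SW620 and 6.61, 6.69 and 6.92 in SW480. It was 8.68-fold lower (-3.12, adjusted p = 2.99e-10), with SW620 arrays below the median feature. Its relative RRAGB rose 1.74-fold, and RRAGA (-0.18) and RRAGC (-0.099) did not pass. WDR59, of the GATOR2 complex that sestrins bind, rose 2.35-fold (1.23), and FNIP2, a folliculin partner, rose 1.72-fold. FNIP1, the other folliculin partner, was lower (-0.58, adjusted p = 0.000176).

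**Figure D4:**
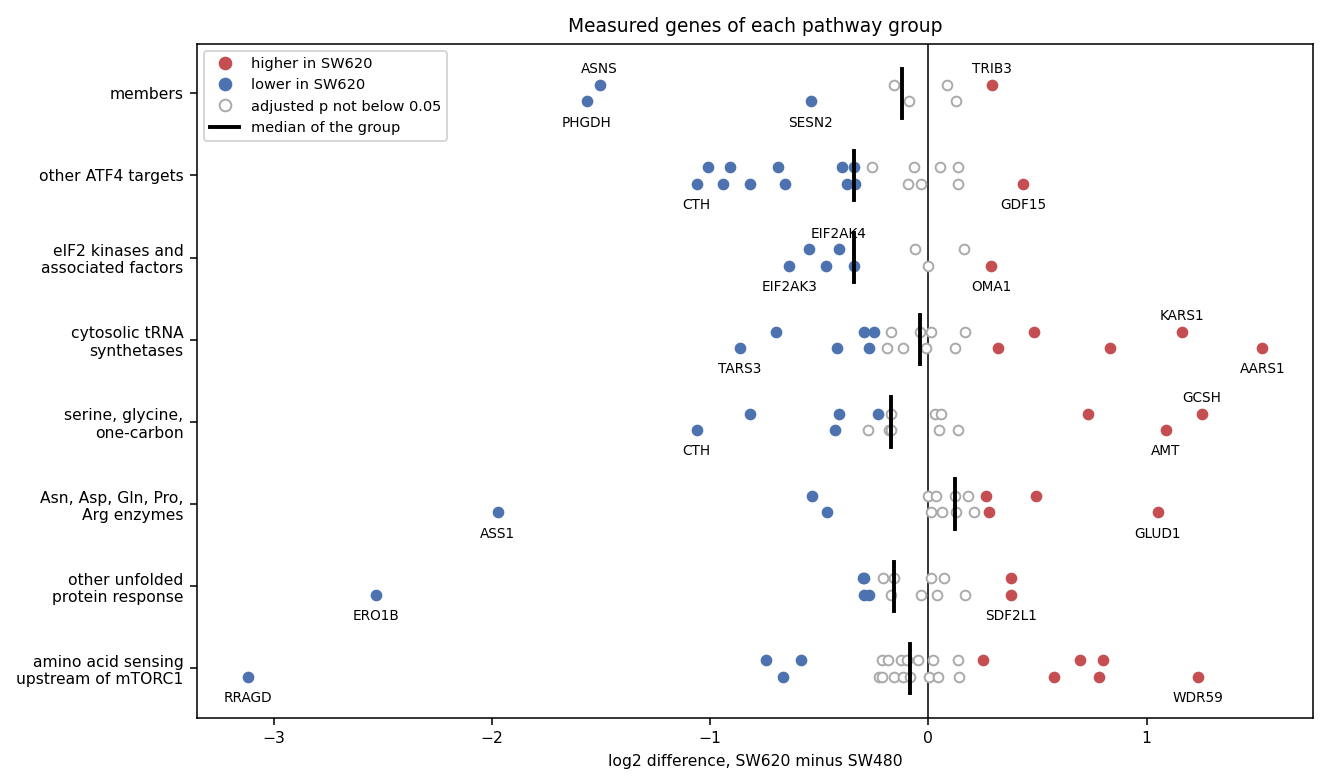
Log2 difference, SW620 minus SW480 (x axis), of every measured gene in the members and 7 pathway groups (rows). CTH, CBS and SHMT2 are plotted both with the other ATF4 targets and with the serine, glycine and one-carbon group. Filled points passed an adjusted p of 0.05, open points did not, and the bar is the group's median, which is -0.34 for the other ATF4 targets and for the eIF2 kinases with associated factors and 0.12 for the asparagine to arginine enzymes.

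Relatives of the members did not all move as the members did. Among Tribbles pseudokinases, TRIB2 was 3.44-fold lower on its brighter feature (5.97 in SW620 and 7.76 in SW480, -1.78) and -0.77 on the other, and TRIB1 was 1.45-fold lower (-0.53), whereas TRIB3 rose. Among sestrins, SESN3 rose 1.62-fold (7.51 in SW620 and 6.81 in SW480), SESN1 differed by -0.086 (adjusted p = 0.558) and SESN2 was lower. Whether members of a family differ in their change was not tested. Of the ATF family, ATF3 and ATF5 (-0.37) were lower, ATF6B (0.38, adjusted p = 0.00304) was higher, and ATF6 (-0.21) and ATF2 (0.031) did not pass. The call of ATF5 was lost without SW620 replicate 2, SW480 replicate 2 or SW480 replicate 3, with adjusted p of 0.0673, 0.0609 and 0.0545. ASNSD1, which resembles ASNS in part, was 1.30-fold lower (-0.38, adjusted p = 0.00262).

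Across the 6 arrays the genes whose values, centred on the gene's mean, ran closest to those of ASNS were NOTCH1, SPRY4, CSGALNACT1, MGST2 and HIVEP3. Their root mean square distances from ASNS were 0.037, 0.051, 0.053, 0.058 and 0.062 log2 units. NOTCH1 had means of 6.19 in SW620 and 7.68 in SW480 and differed by -1.49. With only 2 lines, such likeness mostly restates a difference of similar size between them.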

How the data were processed

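Biotin-labelled sense-strand cDNA from total RNA was hybridised to whole-transcript arrays. The authors deposited log2 expression values for which the submitters' processing notes name RMA and Partek; the version of either is not given in the sources used here. Base 2 was inferred because values span 1.99 to 13.9, and every fold rests on it. RMA removes background and equalises arrays, and can understate folds of dim genes. A platform annotation named 16098 of 53616 features with 1 symbol each. For a gene with several features, the one with the highest mean over the 6 arrays was used.

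SW620 was set against SW480 in limma 3.58.1 under R 4.3.3 (lmFit, eBayes, two-sided, without covariates or filter), adjusted by Benjamini-Hochberg over 14884 genes. The fit was tested on simulated data with independent noise at the spread of these arrays. It recovered 32 of 50 changes of 0.5 log2 units and 49 of 50 changes of 1, so smaller changes can be missed. Only 50 genes at each of 0.5, 1, 2 and 3 log2 units were changed there, whereas 5293 genes were called in the real data. The adjusted threshold was thus stricter in the simulation, and its counts do not give the recovery rate of the real fit. The simulated data hold no spread between cultures or lines. Members and lists were chosen with earlier results of these data known. Named genes are all members and measured relatives, up to 4 called genes per list with the largest difference, and the 5 genes most like ASNS; others are contrasts picked after seeing values. Alternatives were normalization, filters, variance model, features, threshold, replicate block and leaving out arrays. The number of arrays limits the precision.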

Additional observations from a re-analysis of the deposited data

How the results depend on the processing

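Among 48 named genes, 41 kept their direction and their side of the threshold in all of 16 alternatives tried, among them ASNS (-1.58 to -1.45), PHGDH (-1.66 to -1.48), SESN2 (-0.63 to -0.41), CTH and the 4 eIF2 alpha kinases; ATF4, DDIT3, PSAT1 and PSPH passed in none. CSGALNACT1 kept its call in the 15 that gave it a value, being too dim for the median filter. TRIB3, SDF2L1, SEC61B and ATF5 lost the threshold in at least 1 alternative, ATF6 passed in some, and ATF2, never called, changed sign in some. At an adjusted p below 0.01 the members had 0 higher, the eIF2 group 0 higher, the tRNA synthetases 3 lower, the asparagine to arginine enzymes 2 higher, and the unfolded protein response genes 1 higher and 2 lower, a stricter threshold by construction. Leaving out single arrays gave 0 to 1 higher members, 0 to 1 higher in the eIF2 group, 3 to 5 lower synthetases, 2 to 4 higher asparagine to arginine enzymes, and 1 to 2 higher and 3 to 4 lower unfolded protein response genes; the cause was not tested. These fits have fewer samples. Arrays of equal replicate number shared little deviation, with correlations of -0.0089, -0.023 and -0.012. These values cannot tell whether such arrays were processed together. With the replicate block, 2353 genes were higher and 2862 lower, against 2388 and 2905 without it, and members stayed at 1 higher and 3 lower. Dim features, such as those of RRAGD and ERO1B in SW620, limit folds.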
